A study of Mus musculus with 80 samples.

Results

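Interferon-induced antiviral effector genes outside the Ifit, Oas, Gbp, Irg, Ifitm, Slfn and Ifi200 families were followed in HSC, the hematopoietic stem cells of the mouse, and in HPC, their more committed progenitors. The members were 38 named genes out of 41388 in the deposited gene table, chosen by name with earlier results of these data known. Type I interferons bind a receptor made of Ifnar1 and Ifnar2, which signals to the nucleus. Transcription factors there bind the interferon-stimulated response element (ISRE) in the promoters of target genes. The products act against viruses in many ways: they cut or edit viral RNA, deplete or alter nucleotides, mark proteins with ubiquitin or ADP-ribose, and hold virus particles at the membrane. In blood stem cells interferon signalling is known for its effects on proliferation and surface antigens.

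RNA sequencing was done on 80 libraries in 20 groups, all of B6 background. In the age series, for which the labels give no genotype or treatment, HSC were taken at embryonic day E14.5 (written E14, 3 libraries), E16.5 (E16, 4) and E18.5 (E18, 3), at birth (P0, 4), at postnatal days 7 (P7, 4) and 14 (P14, 4), and from adults of 8 weeks (4). HPC were taken at E16 (3), P0 (4), P7 (4), P14 (5) and 8 weeks (4). In the genotype series, P0 HSC were wild type (5) or Ifnar -/- (4), P0 HPC were wild type (4) or Ifnar -/- (4), and P14 HPC were of 4 genotypes: Ifnar +/- with Flt3 +/+ (4), Ifnar -/- with Flt3 +/+ (4), Ifnar +/- with Flt3 ITD/+ (4) and Ifnar -/- with Flt3 ITD/+ (5). The Flt3 internal tandem duplication (ITD) is a leukemia-associated, constitutively active form of the Flt3 receptor tyrosine kinase. At P14 there was no Ifnar wild-type group, so the control there carried 1 disrupted allele. The labels do not name the Ifnar gene, the kind of allele or the number of animals behind a library, so p-values measure the spread between these libraries, which may be technical.

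Depth in units of 1000000 reads per library ranged from 6.95 to 24.034 in the HSC age series, 7.911 to 25.382 in the HPC age series, 37.039 to 46.303 in P0 HSC, 11.683 to 14.72 in P0 HPC and 58.4 to 92.1 in P14 HPC. Stem cell markers were higher in HSC than in HPC: the summed level of 8 HSC genes was 202 to 324 RPKM per HSC library before adulthood, 166 to 212 in adult HSC and 58.3 to 111 in the HPC age series. RPKM is reads per kilobase of exon, scaled to a fixed number of reads per library. Reads over Ifnar1 were not lower in the labelled knockouts: the mean RPKM was 10.75 in wild-type and 11.25 in Ifnar -/- P0 HSC, and 10.33 and 14.35 in P0 HPC. Gene-level reads outside a deleted part check nothing, so these groups are called labelled knockouts. In P14 Ifnar +/- Flt3 +/+ HPC, replicates 1, 3 and 4 stood apart from replicate 2. Kit was at 16, 219, 13.6 and 55.2 RPKM in replicates 1 to 4, and Flt3 at 13.4, 140.5, 13.9 and 20.7. The rank correlation of exon length with a library's deviation from the mean of all libraries was -0.492, -0.523 and -0.437 in replicates 1, 3 and 4, and -0.011 in replicate 2. In P14 Ifnar -/- Flt3 ITD/+ HPC it was -0.305, -0.172, -0.318, -0.374 and -0.476, with Flt3 at 17.01, 45.3, 57.75, 40.47 and 16.12 RPKM. It was -0.231 to -0.093 in Ifnar +/- Flt3 ITD/+ and -0.124 to -0.075 in Ifnar -/- Flt3 +/+. In P0 HPC it was 0.129, 0.14, 0.112 and 0.34 in the wild type and 0.305 to 0.351 in the labelled knockout. In the P14 HPC of the age series it was -0.317 and -0.338 in replicates 1 and 2 and 0.165, 0.278 and -0.018 in replicates 3 to 5, with Flt3 at 22.44 and 36.45 against 83.91, 189.6 and 80.59 RPKM. Counts of called members in comparisons that rest on these control or age series libraries are given below with and without them. The Ifnar -/- Flt3 ITD/+ libraries were left out only 1 at a time.

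Promoters of 29 members were found in RefSeq (GRCm38.p6). Parp9, Parp14, Ifi27, Tor3a, Parp10, Ly6e, Rtp4, Ifi27l2a and Trim14 had no entry. In windows from 250 bases before to 50 bases after the annotated start, the ISRE letters GAAANNGAAA stood on either strand in 6 of 29 members (20.7%) and in 1079 of 27025 genes (3.99%). The letters TTCNNNGAA of the gamma-activated site stood in 4 of 29 (13.8%) and in 9.55% of all genes. The 6 members with an ISRE were Rsad2, Ddx60, Bst2, Trim30a, Trim21 and Lgals9. The 150 bases before the start are printed for the 3 ISRE-holding members with the largest fall in the labelled P0 HSC knockout. Pml and Trim25 follow as the highest expressed members that were called in neither P0 knockout comparison, and Lgals9 was added after its values were seen. Capitals mark ISRE letters, on either strand.
Rsad2 (chr12:26456453-26456602, minus strand): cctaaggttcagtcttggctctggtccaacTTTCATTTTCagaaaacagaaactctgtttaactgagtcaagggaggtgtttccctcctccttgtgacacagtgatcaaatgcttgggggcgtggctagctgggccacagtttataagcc
Ddx60 (chr8:61927937-61928086, plus strand): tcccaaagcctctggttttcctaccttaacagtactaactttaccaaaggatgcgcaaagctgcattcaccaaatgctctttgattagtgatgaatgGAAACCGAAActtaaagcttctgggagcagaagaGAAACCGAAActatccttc
Bst2 (chr8:71537473-71537622, minus strand): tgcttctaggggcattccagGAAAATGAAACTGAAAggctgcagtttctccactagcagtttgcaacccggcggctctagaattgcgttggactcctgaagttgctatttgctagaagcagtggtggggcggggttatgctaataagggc
Pml (chr9:58249787-58249936, minus strand): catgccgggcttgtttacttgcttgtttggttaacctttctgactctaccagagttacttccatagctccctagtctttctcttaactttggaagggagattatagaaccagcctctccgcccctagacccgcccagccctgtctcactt
Trim25 (chr11:88999253-88999402, plus strand): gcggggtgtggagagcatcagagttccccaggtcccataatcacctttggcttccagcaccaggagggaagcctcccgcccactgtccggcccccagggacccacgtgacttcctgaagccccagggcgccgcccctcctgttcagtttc
Lgals9 (chr11:78984925-78985074, minus strand): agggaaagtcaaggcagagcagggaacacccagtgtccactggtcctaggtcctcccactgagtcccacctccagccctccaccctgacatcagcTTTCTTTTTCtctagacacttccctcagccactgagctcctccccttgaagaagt
In Rsad2 the match lies from -120 to -111, counted from the start, and in Ddx60 the same 10 letters stand at -53 to -44 and again at -19 to -10. Bst2 holds overlapping matches at -130 to -121 and -124 to -115, with a gamma-activated site match at -136 to -128 that shares bases with the first. Lgals9 has a match at -55 to -46 and another past the start, at 15 to 24, which lies outside the printed stretch. Pml and Trim25 hold neither motif in the window. Of 17 members with a promoter that were called lower in the labelled P0 HSC knockout, 4 hold an ISRE, and of 12 not called, 2 do. A match is a run of letters and not a shown binding site.

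HSC of E14 and E16 had like, low levels of the members, and the levels were higher at E18. The level of the whole list, the mean over 38 members of log2(RPKM + 0.5), was 3.589 at E14 and 3.52 ± 0.047 (SD, n = 4) at E16, and rose to 4.531 ± 0.134 (n = 3) at E18. The E18 libraries, from 4.409 to 4.675, did not overlap with those of any other HSC age. It was 4.149 ± 0.146 at P0, 3.922 ± 0.122 at P7, 4.103 ± 0.034 at P14 and 4.223 ± 0.055 in the adult (n = 4 each). By group mean, 24 members had their highest HSC level at E18 and 9 in the adult, and 32 had their lowest at E14 (15) or E16 (17). These counts were not made over all genes. In bulk RNA, more cells of an expressing type and more RNA per cell cannot be told apart.

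**Figure D1:**
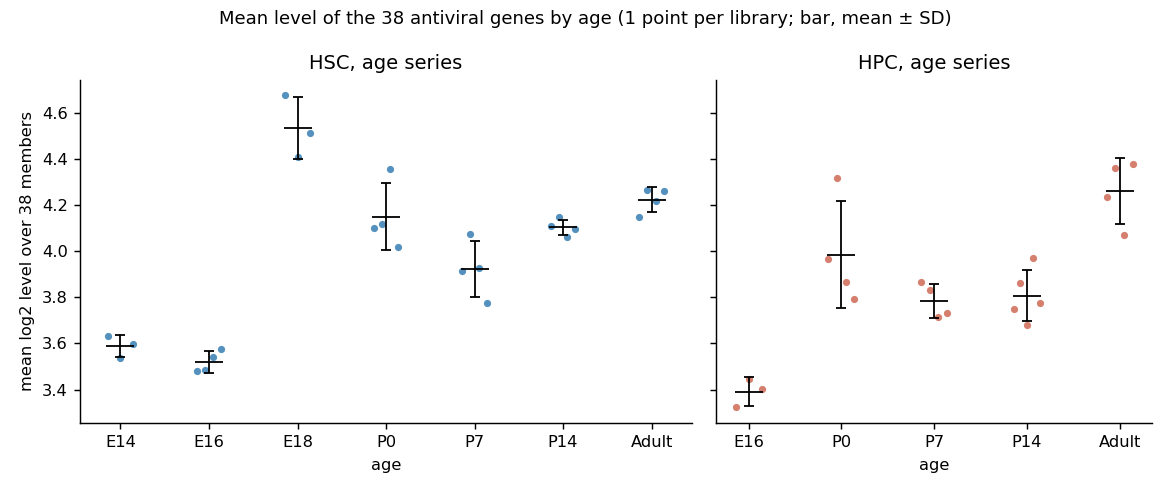
Mean over the 38 members of log2(RPKM + 0.5) in each library of the age series, by age, in HSC and HPC; bars give the mean ± SD. In HSC the 3 E18 libraries lie highest, from 4.409 to 4.675, and in HPC the mean is highest in the adult, at 4.261.

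Between E14 and E16 no member was called in HSC by limma at an adjusted p under 0.05 (Benjamini-Hochberg over 13375 genes). At an unadjusted p under 0.05, 0 members were higher and 3 lower, edgeR on recovered reads called 0, and 0.0523% of all genes were called higher and 0% lower. From E16 to E18, 24 of 38 members rose and none fell, where 2.47% of all genes tested rose. The median log2 change was 0.86 over the members and -0.001 over all genes. By role, 6 of 10 RNA and nucleotide enzymes, 6 of 10 ADP-ribosylation and ubiquitin genes, 7 of 9 membrane, mitochondrial and secreted proteins, 1 of 4 nuclear body and chromatin proteins and 4 of 5 other cytoplasmic proteins rose. Of 37 tested other genes of the interferon pathway (receptors, kinases, transcription factors and other effector families), 27 rose and none fell. With 1 library left out at a time, 20 to 23 members were called, and 20 of the 24 were called in every alternative run.

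Among the RNA and nucleotide enzymes, Rsad2 (viperin, which makes a chain-terminating nucleotide) was at 7.88, 5.64, 7.29 and 7.43 RPKM in the E16 HSC libraries and at 51.8, 27.7 and 27 at E18. The lowest E18 library was above the highest at E16, and E18 replicate 1 was the highest. The log2 change was 2.16 ± 0.21 (SE, limma adjusted p = 9.9e-08). Ddx60, a helicase of the RNA-sensing pathway, rose from 1.73, 3.64, 2.83 and 3.76 RPKM to 15.8, 9.09 and 8.97 (1.72 ± 0.30, adjusted p = 0.00055). Cmpk2, a mitochondrial nucleotide kinase next to Rsad2 in the genome, rose by 1.38 ± 0.32 (adjusted p = 0.0099), and its ranges did not overlap, at 3.65 to 9.91 and 15.3 to 18.1 RPKM. Adar, which edits adenosine in double-stranded RNA, Isg20, an exonuclease, and Znfx1, a zinc finger helicase, rose too. The helicases Helz2 and Mov10, the mitochondrial RNA-degrading enzyme Pnpt1 and the growth-restraining Samd9l were not called. Mov10 was at 32.1 to 42.1 RPKM at E16 and 36.2 to 47.6 at E18, with overlapping libraries.

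The ADP-ribosylation and ubiquitin group had a median change of 0.8 from E16 to E18. Rnf213, a giant ubiquitin ligase, was at 4.06, 3.89, 2.65 and 2.3 RPKM at E16 and 8.79, 8.82 and 7.69 at E18, without overlap (log2 change 1.26 ± 0.19, limma adjusted p = 9.7e-05). Parp12 (1.16 ± 0.32, adjusted p = 0.032) and Parp14 (0.99 ± 0.19, adjusted p = 0.0014), which transfer single ADP-ribose units, rose, although Parp12 was called in only 1 of 7 fits that left out 1 library and not by edgeR on recovered reads (highest adjusted p over the alternatives 0.133). Dtx3l, the ubiquitin ligase that pairs with Parp9, Trim25, a ligase that acts on the RNA sensor RIG-I, and Trim30a rose as well, by 0.78 to 0.86. Parp9, Parp10, Trim14 and Trim21 were not called. Trim14 and Trim21 were scarce, at 0.506 to 0.844 and 0.272 to 1.08 RPKM at E16.

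Among membrane, mitochondrial and secreted proteins, Rtp4, a receptor chaperone, was the most abundant of the strongly changed members. Its levels were 52, 54.6, 75.9 and 74.5 RPKM at E16 and 457, 284 and 336 at E18. Each E18 library was over 3 times the highest at E16, and the log2 change was 2.43 ± 0.19 (limma adjusted p = 4.7e-09). Il18bp, the secreted protein that binds interleukin 18, was at 3.32, 1.61, 1.37 and 0.697 RPKM at E16 and 17.9, 9.62 and 13.5 at E18 (2.71 ± 0.43, adjusted p = 0.00026). The mitochondrial proteins Ifi27l2a (2.40 ± 0.24, adjusted p = 2.2e-07) and Ifi27 rose, as did Bst2 (tetherin, which holds budding virus at the cell surface), Lgals3bp and Ly6e. Ly6e, a GPI-anchored surface protein, was already at 186 to 229 RPKM at E16 and rose by 0.35 (adjusted p = 0.04, up to 0.129 over the alternatives), a call held in 2 of 7 fits that left out 1 library. Lgals9 (galectin-9) was the highest member at E16 with 338 to 369 RPKM, was at 364 to 373 at E18 and was not called, nor was Tor3a.

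Ifi44, a cytoplasmic protein that restrains viral replication, had the largest change of all members. It was at 5.16, 3.39, 3.65 and 5.81 RPKM at E16 and at 56.4, 22.1 and 31.9 at E18 (2.79 ± 0.26, limma adjusted p = 3.6e-08). Xaf1, which binds an inhibitor of apoptosis, rose from 8.55 to 9.3 RPKM at E16 to 31 to 42.6 at E18 (1.89 ± 0.17, adjusted p = 3.1e-08). Ifi35 and Epsti1 rose and Nmi, the partner of Ifi35, was not called. Of the nuclear proteins only Sp100 rose (1.37 ± 0.17, adjusted p = 5.1e-06), while Pml, which builds the same nuclear bodies, Sp110 and Phf11d were not called. The E16 and E18 libraries also differed in markers: the sum of 8 HPC and early lineage genes was 328 to 513 RPKM at E16 and 206 to 222 at E18, with none of the 8 at 0 in all E16 libraries and 3 at E18. Cd48 was at 37.2 ± 9.66 and 3.10 ± 1.66 RPKM. The sum of 8 macrophage markers was 43.9 to 67.3 and 74.6 to 82.7, without overlap. Most of it was Cd68, at 53.17 and 70.06 RPKM on average, and C1qb was called higher (1.91), at 1.088 and 5.311. Mrc1 was at 0 in all E18 libraries. The sum of 6 plasmacytoid dendritic cell markers was 0.452 to 0.937 at E16 and 0.452 to 1.54 at E18. The part of such cells in the result was not tested.

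After E18 the levels came down in parts. From E18 to P0, 6 members fell in HSC and none rose (1.82% of all genes fell), with a median of -0.41 over the members and 0.018 over all genes. They were Ifi44 (-1.12 ± 0.26, limma adjusted p = 0.01), Rnf213 (-0.96 ± 0.19, adjusted p = 0.0027), Ifi27l2a, Adar, Epsti1 and Ifi35. Without E18 replicate 1, the E18 library with the highest Ifi44 and Rsad2, 3 fell, and in a fit of these 2 ages alone none was called. From P0 to P7, 6 fell and none rose (2.83% of all genes fell): Rtp4 (-1.38 ± 0.18, adjusted p = 1.4e-05), Rsad2 (-1.32 ± 0.20, adjusted p = 0.0001), Cmpk2, Xaf1, Trim25 and Trim30a. Rtp4 was at 221, 212, 329 and 188 RPKM at P0 and at 78.6, 106, 99 and 73.8 at P7, and no P7 library reached the lowest at P0. Ifi44 was thus called between E18 and P0 and Rtp4 between P0 and P7; the difference between the genes was not tested. From P7 to P14, Ifi27 (0.70), Rtp4 (0.68) and Ly6e (0.40) rose (0.636% of all genes rose), and 0 of these were called without P7 replicate 4 or without P14 replicate 2. It was 1 without P7 replicate 1 or P14 replicate 1. The library codes in the titles differ between E18, P0 and P7, so the age and the code cannot be told apart there, whereas E14, E16 and E18 share 1 code. The HPC and early lineage sum was 206 to 222 RPKM at E18 and 265 to 596 at P0, with 2 of 6 tested higher. So were 1 of 8 macrophage markers and the tested T and NK cell marker. Of 2 stem and progenitor surface markers 1 was lower. From P0 to P7, 2 of 6 HPC and early lineage markers and 1 of 8 HSC markers were lower. In the same step 1 of 8 macrophage and 1 of 4 endothelial markers were higher. The part of these markers was not tested.

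Adult HSC had higher levels of the members than HSC at E16. Against E16, 20 members were higher and 1 lower in the adult, where 12.5% of all genes were higher and 12% lower. The median was 0.45 over the members and 0.03 over all genes. Il18bp was at 16.4, 23.4, 15.9 and 16.9 RPKM in the adult, above each E16 library (3.17 ± 0.40, limma adjusted p = 9.2e-07). Isg20 was at 10.6, 10.6, 12.4 and 11.3 at E16 and 44.8, 48.9, 41.6 and 42.5 in the adult (1.95 ± 0.17, adjusted p = 7.1e-10). Ly6e went from 186 to 229 RPKM up to 420 to 529 (1.16 ± 0.09, adjusted p = 2.7e-10). These libraries did not overlap for any of the 3 genes. Mov10 was the member that fell, from 35, 32.1, 42.1 and 39 RPKM to 16, 18.9, 20.6 and 25.2 (-0.86 ± 0.15, adjusted p = 7.9e-05). Isg20 and Ly6e were the 2 members that still rose from P14 to the adult (2.31% of all genes rose), by 0.89 and 0.49. Against P0, 5 members were higher in adult HSC (Isg20, Ly6e, Znfx1, Phf11d and Ifi27) and 5 lower (Rsad2, Rtp4, Xaf1, Trim25 and Mov10), where 10.7% of all genes were higher and 10.5% lower. In each direction the share of the members was near that of all genes. From E16 to P0 19 rose, with a median of 0.58 (7.25% of all genes rose). In the titles, adult and P0 HSC share 1 library code, which differs from that of E16 and that of P14. Age and code cannot be told apart in adult against E16, P0 against E16 or adult against P14. Markers also differed between E16 and adult HSC: 5 of 8 macrophage markers were higher and 1 lower, with a sum of 43.9 to 67.3 RPKM at E16 and 52.9 to 94.1 in the adult. Of 8 HSC markers 5 were lower, as were all 4 tested endothelial markers and 4 of 6 tested HPC and early lineage markers. The T and NK cell sum was 10.9 to 23.8 RPKM at E16 and 70 to 91.5 in the adult, with 4 of its 5 genes at 0 in all adult libraries and Nkg7 called higher. Their part in the result was not tested.

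In HPC, which were not sampled at E14 or E18, the mean level was lowest at E16 and highest in the adult, as it was in HSC at the same ages. The list level was 3.391 ± 0.062 (n = 3) at E16, 3.985 ± 0.232 (n = 4) at P0, 3.785 ± 0.075 at P7 (n = 4), 3.807 ± 0.112 (n = 5) at P14 and 4.261 ± 0.142 (n = 4) in the adult. By mean, 26 members were highest in adult HPC and 27 lowest at E16, and the same counts over all genes were not made. From E16 to P0, 12 members rose and none fell (2.6% of all genes rose), with a median of 0.42 over the members and 0.006 over all genes. Ifi27l2a was at 7.98, 9.34 and 16.1 RPKM at E16 and 78.2, 70.5, 81 and 64.4 at P0 (log2 change 2.76 ± 0.35, edgeR quasi-likelihood adjusted p = 0.0001). Ifi44 was at 0.352, 0.678 and 0.721 RPKM at E16 and 3.92, 7.21, 4.66 and 3.27 at P0 (3.06 ± 0.39, adjusted p = 0.00011). Isg20 rose from 5.45, 5.62 and 8.33 to 20.2, 23.6, 17.1 and 18.48 (1.64 ± 0.18, adjusted p = 2.5e-05). P0 replicate 2 was the highest for Isg20 and Ifi44, and the E16 and P0 libraries did not overlap for the 3 genes. Rsad2, Ddx60, Rtp4, Il18bp, Xaf1, Samd9l, Sp100, Parp9 and Lgals3bp completed the 12. From P0 to P7 Rsad2 (-1.30) and Xaf1 (-0.78) fell (0.908% of all genes fell). Neither was called without P0 replicate 2 or without P7 replicate 2, 3 or 4, and 1 was without P7 replicate 1. From P7 to P14 Ly6e rose by 0.99 and Trim25 fell by 0.44 (4.83% of all genes rose and 5.06% fell). Ly6e was called in all 9 fits that left out 1 library, and Trim25 only in that without P14 replicate 5. Without the P14 replicates 1 and 2, 3 members rose and 1 fell, among them 1 of these 2, Ly6e.

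From P14 to the adult, 16 members rose and 1 fell in HPC, where 14.9% of all genes rose and 14.1% fell, with a median of 0.47. Without adult replicate 4, 10 rose and 1 fell, and without the P14 replicates 1 and 2, which stood apart, 14 rose and 1 fell. Scaling by library totals moved the median of all genes by 0.262 and gave 23 higher and 1 lower. Phf11d, a PHD finger protein, had the largest change but few reads, at 0.0813 to 0.183 RPKM at P14 and 0.843 to 1.76 in the adult (3.08 ± 0.52, edgeR adjusted p = 0.00028). Ifi44 was at 2.19 to 5.75 RPKM at P14 and at 14.7, 16.46, 9.85 and 19.7 in the adult (1.61 ± 0.29, adjusted p = 0.00044). Trim25 rose by 0.87 ± 0.14 (adjusted p = 0.00012). Lgals9 went the other way: it was at 702, 603, 618, 655 and 663 RPKM at P14 and at 335, 448, 342 and 396 in the adult, without overlap (-1.01 ± 0.13, adjusted p = 9.1e-06). Against E16, 25 members were higher in adult HPC and 1, Lgals9, was lower (14.9% of all genes higher, 12% lower), with a median of 0.8 over the members and 0.053 over all genes. With library totals, which moved the median of all genes by 0.193, 29 were higher and 1 lower. Each HPC age has its own library code, so age and code cannot be told apart. The HPC and early lineage sum was 1300 to 1610 RPKM at E16, P0 and P7, 2100 to 9260 at P14 and 1610 to 1890 in the adult. From E16 to the adult, 6 of 8 macrophage markers were higher and 1 lower, with a sum of 17.2 to 37.5 RPKM at E16 and 42 to 93.5 in the adult, while 5 of 8 HSC markers and all 3 tested B cell markers were lower. The T and NK cell sum was 89.2 to 102 and 490 to 608 RPKM, with 3 of its 5 genes at 0 in all libraries of each age. From P14 to the adult, 4 of 8 HPC and early lineage markers, 2 of 5 tested plasmacytoid dendritic cell markers and 2 of 3 tested B cell markers were lower. The part of these markers in the results was not tested.

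Of the members higher in the adult than at E16, 17 were called in both cell types, which is 85% of the 20 in HSC and 68% of the 25 in HPC. This overlap was not computed over all genes. The change itself differed between HSC and HPC for 6 members in a joint limma fit (1.91% of all genes differed upward and 2.3% downward). The ages compared have different library codes in both cell types, so age and code cannot be told apart in these differences. The rise of Ifi44 was smaller in HSC than in HPC by 1.75 ± 0.39 on the log2 scale (HSC minus HPC -1.755, adjusted p = 0.0039). Samd9l, Tor3a and Epsti1 differed in the same direction. For Lgals9 (0.76 ± 0.17, adjusted p = 0.0039) and Ly6e (0.66 ± 0.20, adjusted p = 0.046) the difference was positive. Ifi44 and Lgals9 were called in every alternative run. Of 15 fits that left out 1 library, Tor3a was called in 14, Samd9l in 10, Ly6e in 5 and Epsti1 in 2. Without HPC adult replicate 1 or 4, HPC E16 replicate 1 or HSC E16 replicate 2, 3 members were called. From E16 to P0 Trim25 alone differed (0.87 ± 0.22, adjusted p = 0.037; 0.475% of all genes differed upward), and it was called in 6 of 15 fits that left out 1 library. It was not called without HPC E16 replicate 1 or 2, HPC P0 replicate 3 or 4, HSC E16 replicate 1, 2 or 4, or HSC P0 replicate 2 or 4.

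In P0 HSC labelled Ifnar -/-, 23 of 38 members were lower than in the wild type and none higher, where 0.937% of all genes were lower. The median log2 difference was -1.04 over the members and -0.002 over all genes. The list level was 4.149 ± 0.244 (SD, n = 5; 3.933 to 4.5) in the wild type and 2.837 ± 0.064 (n = 4; 2.782 to 2.917) in the labelled knockout. Of 38 other pathway genes, 26 were lower and none higher. With 1 library left out at a time, 20 to 23 members were lower, and 20 were lower in every alternative run; Isg20, Parp14 and Tor3a were the 3 that were not. The HSC marker sum was 211 to 272 RPKM in the wild type and 228 to 264 in the labelled knockout, and the plasmacytoid dendritic cell sum was 0.354 to 1.41 and 0.584 to 1.13. Of 8 macrophage markers, C1qb (-2.31) and Vcam1 (-2.29) were lower, with a sum of 47.8 to 99.4 and 83.8 to 107 RPKM, and Ltf, 1 of 3 tested neutrophil markers, was higher by 0.92, with a sum of 5.52 to 11.3 and 11.1 to 14.4. The part of these markers was not tested.

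Members of the membrane, mitochondrial and secreted group fell in 7 of 9 cases. Rtp4 was at 146, 125, 114, 193 and 230 RPKM in wild-type P0 HSC and at 0.644, 1.11, 1.54 and 1.78 in the labelled knockout (-7.01 ± 0.35, edgeR quasi-likelihood adjusted p = 9.1e-08). Ifi27 was at 58.7, 53.5, 47.8, 76.5 and 67.9 RPKM against 2.97, 2.65, 3.9 and 3.56 (-4.23 ± 0.20, adjusted p = 9.1e-08). Ifi27l2a was at 7.46 to 20.9 against 0.567 to 1.45 (-3.71 ± 0.42, adjusted p = 0.00015). No knockout library of these 3 genes came near the wild type, and wild-type replicate 5 was the highest for Rtp4 and Ifi27l2a. Bst2 was at 120, 105, 101, 167 and 171 RPKM and at 48, 58.3, 54.3 and 60.6, so that a large part of its level remained (-1.27 ± 0.20, adjusted p = 0.0033). Il18bp, Lgals3bp and Tor3a were lower. Ly6e (164 to 241 RPKM in the wild type, 146 to 185 in the labelled knockout) and Lgals9 (238 to 315 and 175 to 296) overlapped between genotypes and were not called.

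Among the RNA and nucleotide enzymes 6 of 10 were lower in P0 HSC. Rsad2, whose promoter stretch is printed above, was at 22.8, 16.9, 18.9, 25.6 and 31.9 RPKM in the wild type and 3.46, 4.39, 4.16 and 3.05 in the labelled knockout (-2.63 ± 0.22, edgeR adjusted p = 1.1e-05). Cmpk2 (-2.19 ± 0.24, adjusted p = 0.00012) and Ddx60 (-1.91 ± 0.22, adjusted p = 0.00016) followed, with Samd9l, Isg20 and Adar. Of the ADP-ribosylation and ubiquitin genes 4 of 10 were lower. Parp9, the partner of Dtx3l, was at 25.4, 26.4, 24.1, 25.3 and 33.6 RPKM against 9.9, 10.4, 12 and 11.2 (-1.31 ± 0.14, adjusted p = 6.6e-05). Rnf213 (-1.28), Trim30a (-1.04) and Parp14 (-0.79) were the others. Parp10, Parp12, Dtx3l, Trim14, Trim21 and Trim25 were not called.

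Ifi44 showed the largest difference in P0 HSC, with 16.8, 14.8, 12.8, 27.2 and 32.5 RPKM in the wild type and 0.0249, 0.0918, 0.121 and 0.0786 in the labelled knockout (-8.04 ± 0.46, edgeR adjusted p = 2.7e-07). Xaf1 (-2.43), Ifi35 (-1.33) and Epsti1 (-0.74) were lower and Nmi was not called. Of the nuclear proteins, Sp100 was at 23.9, 22.9, 21.7, 24.1 and 29.1 RPKM against 6.22, 6.3, 8.93 and 7.88 (-1.74 ± 0.14, adjusted p = 8.7e-06), and Phf11d was lower at low levels, 0.364 to 0.991 against 0.0113 to 0.107. Pml and Sp110 were not called. Of the 24 members that rose from E16 to E18 in HSC, 19 (79.2%) were lower in the labelled P0 HSC knockout, which is 82.6% of its 23. Dtx3l, Ly6e, Parp12, Trim25 and Znfx1 rose before birth without a call in the knockout, and all of these but Dtx3l also lost the E18 call in at least 1 alternative: Znfx1 and Ly6e were each called in 2 of 7 fits that left out 1 library, Parp12 in 1 and Trim25 in 6. Parp9, Phf11d, Samd9l and Tor3a were lower in the knockout without a call before birth. Over all 12702 genes tested in both comparisons, 85 of the 325 that rose from E16 to E18 (26.2%) were lower in the labelled knockout, which is 61.2% of its 139.

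**Figure D2:**
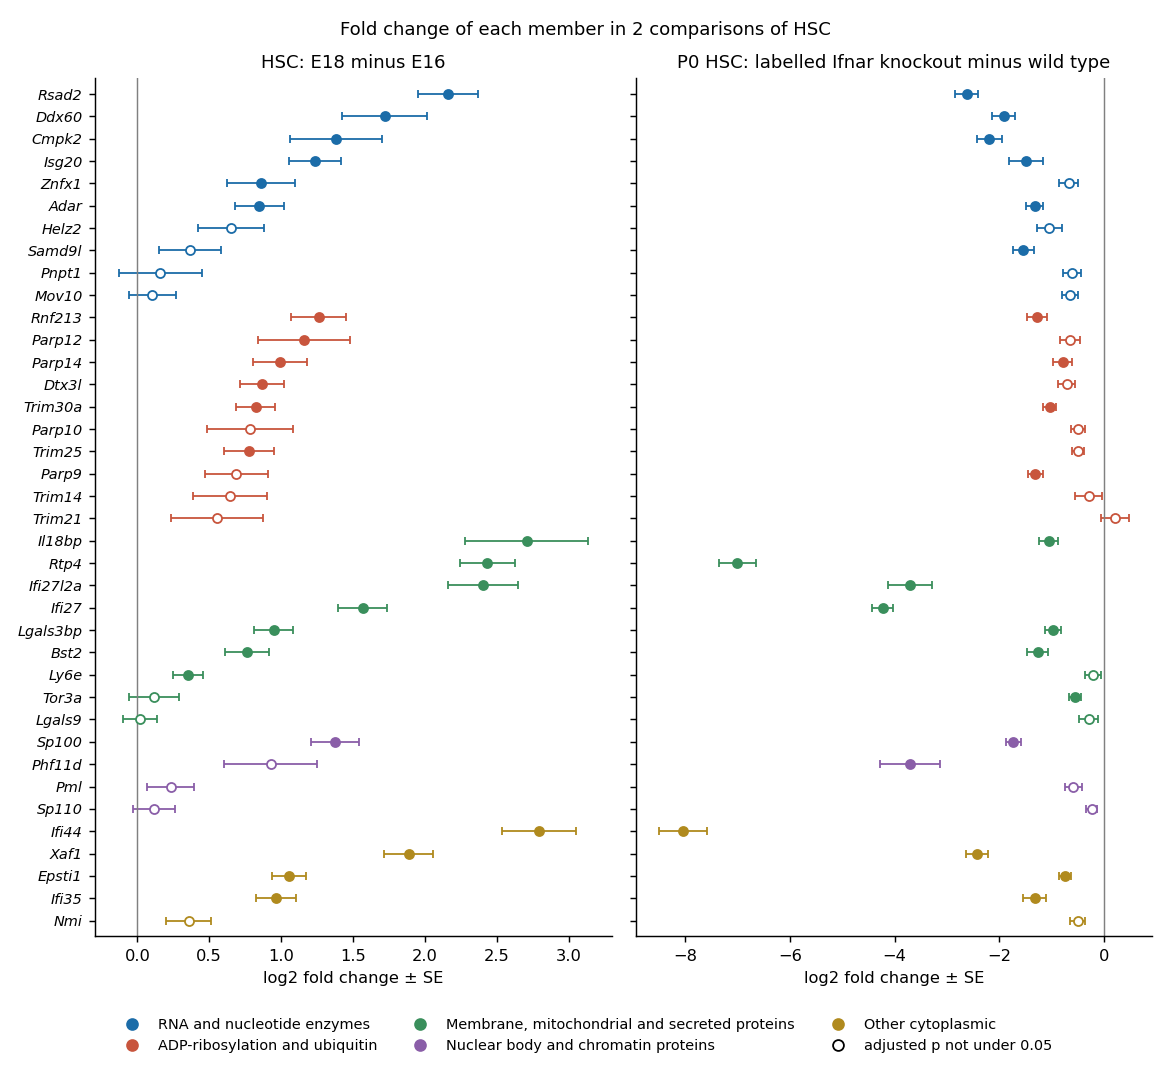
Log2 change ± SE of each of the 38 members in HSC from E16 to E18 and in labelled Ifnar -/- minus wild-type P0 HSC, by role; open symbols mark members not called. Of the members, 24 are called above 0 from E16 to E18 and 23 below 0 in the labelled knockout. The SE of the knockout comparison was derived from the edgeR F statistic.

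In P0 HPC labelled Ifnar -/-, 31 of 38 members were lower and none higher, where 5.58% of all genes were lower. The median was -1.24 over the members and 0.012 over all genes. All 9 membrane, mitochondrial and secreted proteins and all 5 other cytoplasmic proteins were lower, with 8 of 10 RNA and nucleotide enzymes, 6 of 10 ADP-ribosylation and ubiquitin genes and 3 of 4 nuclear proteins. Of 37 other pathway genes, 29 were lower. All 12 members that rose from E16 to P0 in the HPC age series were among the 31 (38.7%); the same overlap over all genes was not computed. Against wild-type replicate 4 alone, whose length correlation was like that of the knockout libraries, 15 were called, with a median of -1.23; the lone library is assumed there to vary like the others. With the length correlation as a covariate, 22 were lower. Other markers moved too: the plasmacytoid dendritic cell sum, over 6 genes of which 1 was at 0 in all libraries, was 36.9 to 45.5 RPKM in the wild type and 6.01 to 7.44 in the labelled knockout. The HPC and early lineage sum over 8 genes, none at 0, was 1320 to 1480 and 601 to 855, the HSC sum was 76.6 to 85.1 and 101 to 147, and the macrophage sum was 50.7 to 64.2 and 17.4 to 45.4. The T and NK cell sum was 73.7 to 117 and 36.9 to 63.8, with 3 of its 5 genes at 0 in all libraries of each group. Their part in the result was not tested.

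Ifi44 was at 9.79, 3.76, 9.23 and 5.68 RPKM in wild-type P0 HPC and had 0 reads in all 4 knockout libraries. Taking a floor of 3 reads over the group, it was at least 734-fold lower. Rtp4 was at 268, 228, 362 and 224 RPKM against 3.37, 4.72, 2.37 and 2.3 (-6.47 ± 0.26, edgeR adjusted p = 4.3e-08). Ifi27l2a was at 153, 97.2, 136 and 56.8 RPKM against 1.29, 0.506, 1.31 and 2.66 (-6.31 ± 0.43, adjusted p = 1.4e-06). The libraries of the genotypes did not overlap for these genes, and wild-type replicate 4 was the lowest wild-type library for Rtp4 and Ifi27l2a. Ifi27 (-4.93 ± 0.16, adjusted p = 2.6e-10) and Rsad2 (-3.84 ± 0.20, adjusted p = 4.6e-08) followed. Phf11d had 8 reads in the knockout group, all in 1 library. Ly6e, not called in HSC, was at 371, 325, 385 and 332 RPKM against 193, 192, 194 and 183 (-0.96 ± 0.09, adjusted p = 1.7e-05). Pml was at 25.1, 21.5, 26.9 and 26.1 RPKM against 27.4, 25, 25.3 and 26.4, and Pnpt1, Znfx1, Parp12, Trim14, Trim21 and Trim25 were not called either.

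All 23 members lower in the labelled P0 HSC knockout were also lower in HPC, which is 74.2% of the 31 there. The other 8 were Dtx3l, Helz2, Lgals9, Ly6e, Mov10, Nmi, Parp10 and Sp110. The overlap of these calls over all genes was not computed. The difference between the effects was called for 3 members in a joint edgeR fit, all with a smaller fall in HSC (0.698% of all genes were called in this direction). It was 2.63 ± 0.65 for Ifi27l2a (adjusted p = 0.04), 1.22 ± 0.30 for Rsad2 (adjusted p = 0.042) and 0.76 ± 0.20 for Ly6e (adjusted p = 0.049). Against wild-type HPC replicate 4 alone, or with the length covariate, none was called, and DESeq2 called 7. With 1 library left out at a time, 0 to 6 were called: 6 without wild-type HSC replicate 5 or wild-type HPC replicate 4, 1 without knockout HSC replicate 1 or 3 or knockout HPC replicate 1, and none without wild-type HSC replicate 1, 2 or 3, knockout HSC replicate 2, wild-type HPC replicate 1 or 3, or knockout HPC replicate 2 or 3. In the wild type, 11 members were higher in P0 HSC than in HPC and 10 lower, where 29% of all genes were higher and 25.2% lower. The members were thus called about as often as all genes in each direction. Il18bp (1.75 ± 0.24, adjusted p = 3.5e-06) and Ifi44 (1.60 ± 0.37, adjusted p = 0.0018) were higher in HSC, and Ifi27l2a (-3.14 ± 0.35, adjusted p = 2.7e-07), Ifi27 (-1.61 ± 0.16, adjusted p = 3.1e-08) and Lgals9 (-1.32 ± 0.16, adjusted p = 6.6e-07) lower. With wild-type HPC replicate 4 alone, 6 were higher and 6 lower. The cell types were sequenced under different library codes, so cell type and code cannot be told apart.

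**Figure D3:**
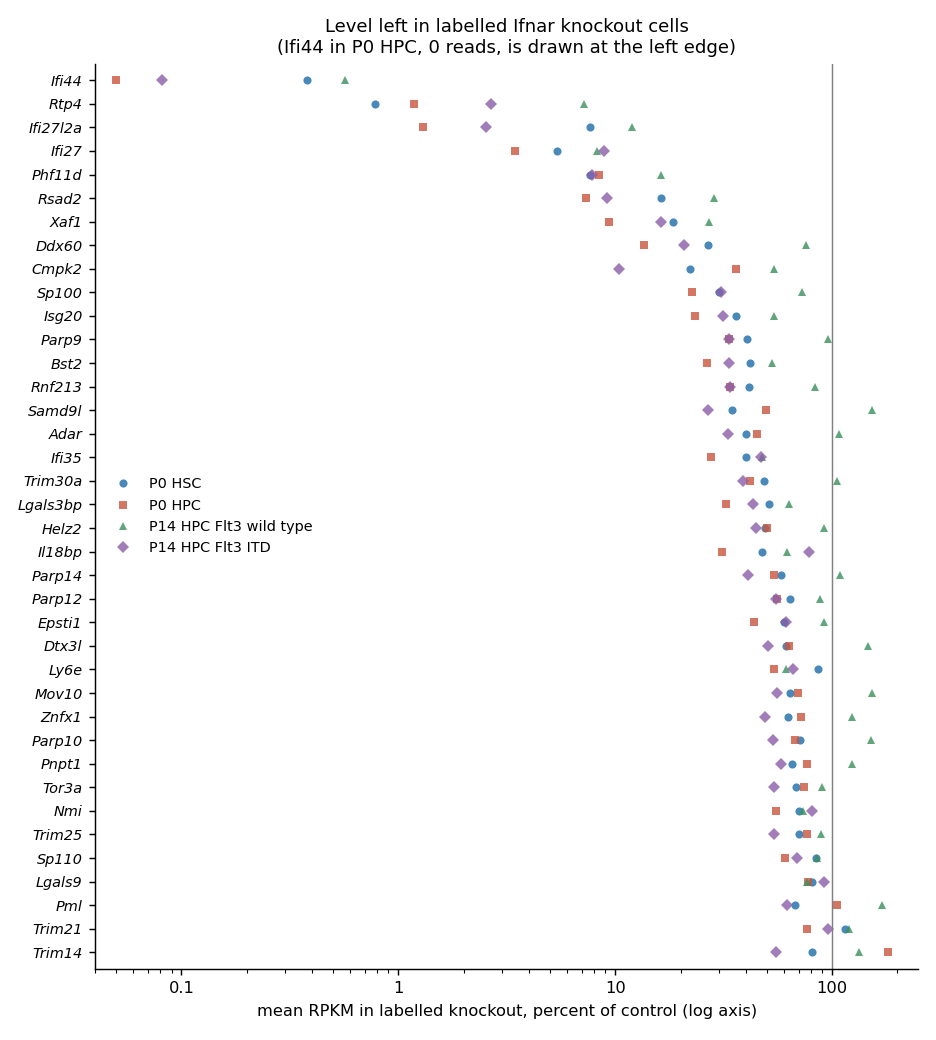
Percent of the control mean RPKM that remained in the labelled Ifnar knockout for each member, on a log axis, in P0 HSC, P0 HPC and P14 HPC with Flt3 +/+ or Flt3 ITD/+. The medians are 48.9, 44.3, 84.6 and 43.8%, and Ifi44 in P0 HPC, with no reads, is drawn at the left edge. The Flt3 +/+ control mean includes the libraries that stood apart.

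As a share of the control mean, the members ranged from 0.381 to 115% in labelled P0 HSC knockouts, with a median of 48.9%, and from 0 to 180% in P0 HPC, with a median of 44.3%. At P14 the median was 84.6% in Flt3 +/+ HPC (0.565 to 170%) and 43.8% in Flt3 ITD/+ HPC (0.082 to 96.1%). The Flt3 +/+ control mean includes the libraries that stood apart, and the share was not computed without them. These shares use RPKM without TMM scaling, and the difference between the medians was not tested. Over the 4 comparisons of a labelled knockout with its control, 10 members were lower in all 4: Bst2, Ifi27, Ifi27l2a, Ifi35, Ifi44, Isg20, Phf11d, Rsad2, Rtp4 and Xaf1. Of 12715 genes tested in all 4, 46 (0.362%) were lower in all 4. The count leans on the P14 Flt3 +/+ comparison, where Isg20 and Phf11d were called in 1 of 8 fits that left out 1 library, Rsad2 in 2, and Bst2 and Ifi35 in 4. It also leans on P0 HSC, where Isg20 was called in 4 of 9 such fits, and on P0 HPC, where Phf11d was in 4 of 8. Another 12 members were lower in 3 comparisons, 6 in 2 and 6 in 1. Pml, Pnpt1, Trim14 and Trim21 were called in none.

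In P14 HPC with Flt3 +/+, 11 members were lower in Ifnar -/- than in Ifnar +/- and none higher, where 3.56% of all genes were lower. The median was -0.43 over the members and 0.043 over all genes. Rtp4 was at 83.2, 92.9, 137 and 148 RPKM in Ifnar +/- and at 6.6, 9.29, 7.17 and 9.85 in Ifnar -/- (-4.00 ± 0.39, edgeR adjusted p = 2.6e-05). Ifi27 was at 113, 115, 196 and 159 RPKM against 11.5, 14.2, 10.3 and 11.7 (-3.83 ± 0.27, adjusted p = 3.1e-07). Neither gene's libraries overlapped. Ifi44 (-7.57 ± 0.91, adjusted p = 0.00069) and Ifi27l2a (-3.32 ± 0.39, adjusted p = 0.00024) were lower, and these 4 were called in every alternative run. Phf11d, Xaf1, Rsad2, Ifi35, Bst2, Isg20 and Ly6e were the other 7, and no ADP-ribosylation or ubiquitin gene was called. Of 38 other pathway genes, 14 were lower. This comparison rests on the control libraries that stood apart. Against Ifnar +/- replicate 2 alone 4 were lower, with a median of -0.68. Without replicate 2, 15 were lower and 6 higher. Without Ifnar +/- replicate 1, 3 or 4, 7, 5 and 7 were lower, and without Ifnar -/- replicate 1, 2, 3 or 4, 5, 6, 6 and 6. With library totals, which moved the median of all genes by 0.232, 8 were lower, and DESeq2 called 17. The plasmacytoid dendritic cell sum was 25.7 to 35.3 RPKM in Ifnar +/- and 6.51 to 12.2 in Ifnar -/-. The HSC sum was 46.6 to 83.1 and 91.9 to 119, with 3 of 8 markers called higher. Of 8 HPC and early lineage markers 4 were lower, with a sum of 955 to 5240 and 939 to 1110. The T and NK cell sum was 175 to 628 in Ifnar +/- and 104 to 159 in Ifnar -/-. Their part was not tested.

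With Flt3 ITD/+, 29 members were lower in Ifnar -/- than in Ifnar +/- P14 HPC and none higher, where 1.93% of all genes were lower. The median was -1.24 over the members and 0.019 over all genes, and 26 of 38 other pathway genes were lower. By role, 8 of 10 RNA and nucleotide enzymes, 8 of 10 ADP-ribosylation and ubiquitin genes, 6 of 9 membrane, mitochondrial and secreted proteins, 3 of 4 nuclear and 4 of 5 other cytoplasmic proteins were lower. Rsad2 was at 4.42, 9.05, 23.5 and 17.4 RPKM in Ifnar +/- and at 1.12, 1.38, 1.63, 1.24 and 0.863 in Ifnar -/- (-3.52 ± 0.43, edgeR adjusted p = 7e-05). Rtp4 was at 54.5, 144, 215 and 202 RPKM against 4.38, 2.7, 4.07, 4.35 and 4.94 (-5.29 ± 0.38, adjusted p = 1.7e-07). Ifi44 was at 5.57, 15.8, 30.6 and 28.8 RPKM against 0.0383, 0.0275, 0.0165, 0 and 0. Ifnar +/- replicate 1 was the lowest control for all 3 genes, yet lay above every Ifnar -/- library. Cmpk2 (-3.33 ± 0.33, adjusted p = 4.6e-06), Ifi27l2a (-5.36 ± 0.39, adjusted p = 1.8e-07) and Rnf213 (-1.62 ± 0.18, adjusted p = 1.9e-05) were lower. Lgals9, Ly6e and Il18bp of the membrane group were not called. With 1 library left out at a time, 23 to 29 were called. With the length covariate Parp10, Dtx3l and Trim25 were not called. The length correlation was -0.476 to -0.172 in the Ifnar -/- and -0.231 to -0.093 in the Ifnar +/- libraries. The plasmacytoid dendritic cell sum was 24.7 to 77.2 RPKM in Ifnar +/- and 16.7 to 24 in Ifnar -/-. The HSC sum was 35 to 40.6 and 71.8 to 94.4, with 4 of 8 markers called higher, and the HPC and early lineage sum was 1740 to 2340 and 1040 to 1440. None of these 3 sums overlapped, and their part was not tested. Of the 11 members lower with Flt3 +/+, 10 were lower with Flt3 ITD/+ (90.9% of the 11 and 34.5% of the 29). This overlap, too, was not computed over all genes.

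**Figure D4:**
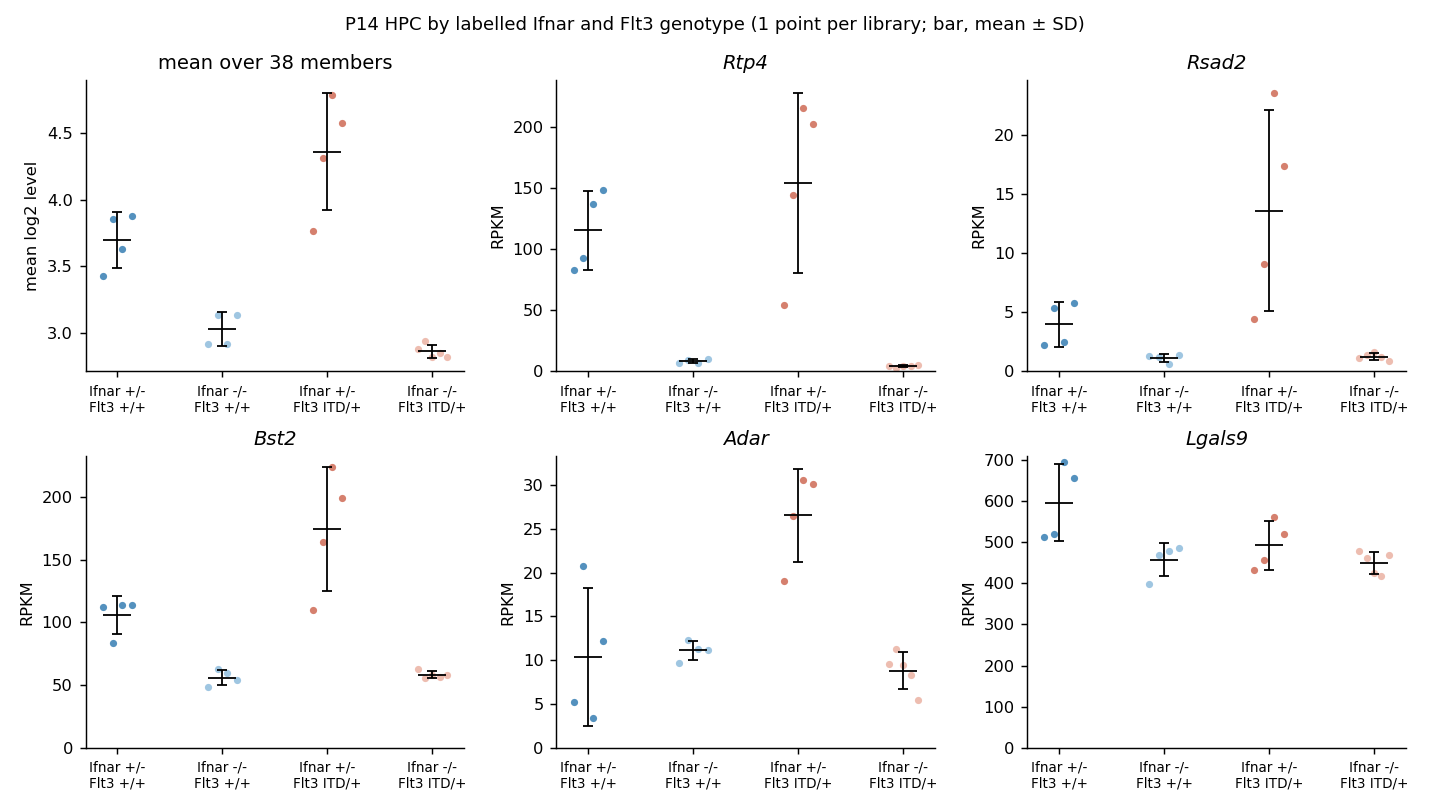
List level (mean over 38 members of log2(RPKM + 0.5)) and RPKM of Rtp4, Rsad2, Bst2, Adar and Lgals9 in each P14 HPC library of the 4 genotypes. The list level is 3.765 to 4.785 in Ifnar +/- Flt3 ITD/+ and 2.817 to 2.939 in Ifnar -/- Flt3 ITD/+, and Adar spreads from 3.37 to 20.8 RPKM within Ifnar +/- Flt3 +/+.

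Flt3 ITD/+ was compared with Flt3 +/+ at each Ifnar genotype. In Ifnar +/- HPC, 14 members were higher with Flt3 ITD/+ and none lower, where 2.77% of all genes were higher, with a median of 0.75 over the members and -0.006 over all genes. They included 6 ADP-ribosylation and ubiquitin genes and 4 RNA and nucleotide enzymes, and 16 of 38 other pathway genes were higher. Rnf213 was at 1.9, 3.27, 1.93 and 2.54 RPKM with Flt3 +/+ and 3.67, 5.07, 5.76 and 4.89 with Flt3 ITD/+, without overlap (0.95 ± 0.19, edgeR adjusted p = 0.0082). Adar was at 5.2, 20.8, 3.37 and 12.2 RPKM and at 19, 26.4, 30.6 and 30.1 (1.35 ± 0.37, adjusted p = 0.043), and Flt3 +/+ replicate 2 overlapped the Flt3 ITD/+ range. Rsad2 was at 2.23, 5.35, 2.48 and 5.81 against 4.42, 9.05, 23.5 and 17.4 RPKM, with overlap (1.76 ± 0.43, adjusted p = 0.031). Ifi44 (2.52), Cmpk2 (1.53), Ifi27l2a (1.49), Dtx3l (1.21), Parp9 (1.23), Ddx60, Parp10, Parp14, Sp100, Trim30a and Tor3a were the others. The count turned on a few libraries. Against Flt3 +/+ replicate 2 alone none was called, with a median of 0.50, and without that replicate 23 were higher and 1 lower. Without Flt3 +/+ replicate 1, 3 or 4, 4, 2 and 5 were called, and without Flt3 ITD/+ replicate 2, 3 or 4, 7, 1 and 5. In a fit of these 2 groups alone, 0 were called. The HSC sum was 46.6 to 83.1 RPKM with Flt3 +/+ and 35 to 40.6 with Flt3 ITD/+, with 2 of 8 markers lower, and the plasmacytoid dendritic cell sum was 25.7 to 35.3 and 24.7 to 77.2. Of 8 macrophage markers, Adgre1 (3.69) and Csf1r (2.39) were higher. The macrophage sum overlapped, at 51.1 to 65.8 RPKM with Flt3 +/+ and 54.9 to 60.1 with Flt3 ITD/+. Their part was not tested.

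In Ifnar -/- HPC no member was called between Flt3 ITD/+ and Flt3 +/+ by edgeR, and none by DESeq2. At an unadjusted p under 0.05, 0 were higher and 6 lower, and 0.647% of all genes were called higher and 0.309% lower. The median was -0.2, and the list level was 2.859 ± 0.051 (n = 5) with Flt3 ITD/+ and 3.025 ± 0.127 (n = 4) with Flt3 +/+. In Ifnar +/- it was 4.362 ± 0.442 and 3.697 ± 0.213 (n = 4 each). The length correlation in Ifnar -/- libraries was -0.476 to -0.172 with Flt3 ITD/+ and -0.124 to -0.075 with Flt3 +/+. The test of the difference, the knockout effect with Flt3 ITD/+ minus that with Flt3 +/+, called no member by edgeR and 17, all lower, by DESeq2. At an unadjusted p under 0.05, 0 members were higher and 23 lower by edgeR, and 0% of all genes were called higher and 0.0115% lower. Without Ifnar +/- Flt3 +/+ replicate 2, 18 were called lower, without Ifnar +/- Flt3 ITD/+ replicate 1, 2 were, and against replicate 2 alone none was.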

How the data were processed

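Bulk RNA was sequenced from sorted mouse HSC and HPC. Per the labels' protocols, RNA was extracted with a Qiagen micro plus kit and libraries were made with a Clontech kit. Per the submitters' processing notes, STAR 3.0.4 and Subread featureCounts 1.4.5 were used. The genome build is not given in the sources used here. The authors deposited raw read counts per gene for all HPC and all genotype libraries. For the HSC age series the authors deposited RPKM values, which are normalized to exon length and depth. A whole number of reads was recovered from 100% of the nonzero RPKM values of 25622 detected genes, within a tolerance of 1e-05, and gave the depths of those libraries; edgeR on these reads called 22 members from E16 to E18 in HSC, where limma called 24. Of 41388 gene IDs, 40254 had a symbol. A column of values that matched no sample (1) and 2 rows that were not mouse genes (at most 0.000144% of reads) were not used.

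HPC counts were tested with edgeR 4.0.16 (R 4.3.3; TMM, filterByExpr with a minimum count of 10, glmQLFit and glmQLFTest). For HSC ages, RPKM was TMM-scaled, filtered at 1 RPKM, taken to log2(RPKM + 0.5), which understates changes of low genes, and fitted in limma 3.58.1 with a robust trend. All ages of a cell type, and all 4 P14 genotypes, shared 1 estimate of the spread. HSC against HPC over age was an interaction in limma, with HPC counts put on the RPKM scale. P-values were adjusted by Benjamini-Hochberg over all genes tested, and a member was called at an adjusted p under 0.05. For edgeR the SE was taken as the absolute log2 change over the square root of the test's F statistic. Levels per library are RPKM, computed from the counts with the exon lengths behind the deposited RPKM; the list level is TMM-scaled within the age and within the genotype series. The fits were tested on simulated data, and the outcome is not given here. The simulated counts held no length effect, no library apart and no library code, so they cannot show how the fits fare with these.

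The members and lists were chosen with earlier results of these data known. Every member is named. In each comparison fold changes with SE and p are given for at most the 6 called members of largest change in each direction and up to 3 called members of each role. Alternatives were DESeq2 1.42.0, no filter, other scalings and pseudocounts, recovered reads in edgeR, fits of the 2 groups alone, a replicate block, leaving out each library, a length covariate, fits against a single control library and fits without the P14 HPC replicates 1 and 2 of the age series; the last 3 were chosen after seeing the data.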

Additional observations from a re-analysis of the deposited data

Results flagged for a closer look

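In 4 of 102 group levels checked, 1 library lay far from the others of its group by Dixon's test. Chance gives such a library in about 1 in 20 groups. The levels are means over the genes of a role of log2(RPKM + 0.5). For the RNA and nucleotide enzymes, HSC E16 replicate 4 was the high one, at 3.044. For the ADP-ribosylation and ubiquitin genes, HSC E16 replicate 2 was apart at 2.548. The membrane, mitochondrial and secreted proteins were apart in HPC P7 replicate 3, at 6.015, and the nuclear body and chromatin proteins in adult HPC replicate 3, at 3.399.

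The effect of the labelled Ifnar knockout at P0 differed between cell types, by a test of the difference in a joint fit, for Ifi27l2a (HSC minus HPC 2.629 on the log2 scale), Rsad2 (1.223) and Ly6e (0.764). Each fell less in HSC than in HPC. None of the 3 was called when only wild-type HPC replicate 4 stood for its group. The change from E16 to the adult differed between cell types, by the same kind of test, for Ifi44 (HSC minus HPC -1.755), Samd9l (-1.117), Tor3a (-0.943), Epsti1 (-0.692), Lgals9 (0.763) and Ly6e (0.655). Only Ifi44 and Lgals9 were called in every alternative run. The change from E16 to P0 differed for Trim25 (0.868), called in 6 of 15 fits that left out 1 library.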

How the results depend on the processing

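No member called in a comparison changed direction there in any alternative run, and of 407 recomputed counts of called members 320 stayed within 1.5 times the value reported. With 1 library left out at a time, the counts ranged as follows. In HSC they were 0 to 0 for E16 against E14, 20 to 23 for E18 against E16, 3 to 8 for P0 against E18, 5 to 8 for P7 against P0, 0 to 3 for P14 against P7, 2 to 3 for adult against P14, 17 to 21 for adult against E16, 8 to 11 for adult against P0 and 15 to 20 for P0 against E16. In HPC they were 9 to 13 for P0 against E16, 0 to 2 for P7 against P0, 1 to 3 for P14 against P7, 11 to 17 for adult against P14 and 23 to 26 for adult against E16. For the labelled Ifnar knockout they were 20 to 23 in P0 HSC, 28 to 33 in P0 HPC, 0 to 6 for the difference between these effects, 5 to 21 in P14 HPC with Flt3 +/+ and 23 to 29 with Flt3 ITD/+. For Flt3 ITD/+ they were 1 to 24 in Ifnar +/- and 0 to 0 in Ifnar -/-, and for the difference of knockout effects 0 to 18. Wild-type P0 HSC against HPC gave 18 to 24, and the differences of HSC and HPC over age gave 3 to 5 (adult against E16) and 0 to 2 (P0 against E16).

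Other alternatives that moved a count by more than 1.5 times were these. In fits of the 2 groups alone, HSC P0 against E18 gave 0, HPC P14 against P7 gave 1, the P14 knockout with Flt3 +/+ gave 6, Flt3 ITD/+ in Ifnar +/- gave 0 and in Ifnar -/- gave 2. DESeq2 gave 4 for HPC P14 against P7, 7 for the difference of P0 knockout effects, and 17 each for the P14 knockout with Flt3 +/+ and for the P14 difference of knockout effects. Without a filter, HSC P14 against P7 and HPC P14 against P7 gave 1 each and Flt3 ITD/+ in Ifnar +/- gave 9. Library totals gave 4 for HPC P14 against P7, and a pseudocount of 1 gave 3 for P0 against E16 in HSC minus HPC. The length covariate, chosen after seeing the data, gave 5 for HPC P14 against P7, 0 for the difference of P0 knockout effects, 4 for the P14 knockout with Flt3 +/+, 2 for Flt3 ITD/+ in Ifnar +/- and 2 for P0 against E16 in HSC minus HPC. Leaving out the P14 replicates 1 and 2 of the HPC age series, chosen after seeing the data, gave 4 for HPC P14 against P7. Single control libraries, also chosen after seeing the data, gave 15 for the P0 HPC knockout, 0 for the difference of P0 effects and 12 for wild-type HSC against HPC with wild-type HPC replicate 4, and 4 for the P14 knockout with Flt3 +/+ and 0 for Flt3 ITD/+ in Ifnar +/- with replicate 2. The cause of these moves was not tested. Fits of the 2 groups alone could not be run for the differences of effects, and the P0 knockout fits already hold only those groups.

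Replicate numbers were not used to pair libraries in the main fits. Same-numbered deviations correlated above 0.1 in 0 of 73 pairs in HSC ages, 5 of 36 in HPC ages, 0 of 4 in P0 HSC, 1 of 4 in P0 HPC and 8 of 24 in P14 HPC. The highest correlation was 0.226 in P14 HPC and 0.187 in HPC ages. Differently numbered pairs were not compared, so these values cannot show that pairing was absent. With the replicate block, 5 members were called for the difference of P0 knockout effects, 21 for HSC E18 against E16, 21 and 30 for the P0 HSC and HPC knockouts, and 25 for the P14 knockout with Flt3 ITD/+.

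Depth limits the scarce members. Phf11d had 16 reads in 3 HPC E16 libraries and 8 in 4 P0 HPC knockout libraries, so its fold changes are loosely set. With 3 to 5 libraries per group, a member that was not called may still differ.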
